A study of Mus musculus with 9 samples.

Results

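The expression of 10 genes that mark lipid-laden macrophages was followed in mouse lung after irradiation: Gpnmb, Trem2, Spp1, Lgals3, Lpl, Apoe, Fabp5, Mmp12, Cd36 and Plin2. They were chosen by name, with earlier results of these data known. All 10 were found among the 19698 genes that the arrays measured. They were carried by 12 probes, and each gene was read from its brightest probe. The measurements came from 9 Agilent arrays with 1 color each, hybridized with RNA of lung tissue, and the labels put 4 of them in the control group and 5 in the irradiated group. The methods place the irradiated tissue in the left lung and give no side for the control lungs. The mice were C57BL/6 males irradiated at 10 weeks of age with a single dose under Zoletil and Rompun anesthesia, and the control lungs came from mice that were not irradiated. The labels of the irradiated arrays give no dose, no lung region and no time after irradiation, so the 5 arrays may differ in all of these. RNA from 3 experiments was pooled for each time point according to the methods, and the labels do not say whether the arrays of a group came from separate animals, so p-values measure only the spread between arrays. No allele or transgene is named in the labels. In tissue RNA, fewer cells of a type and less RNA per cell cannot be told apart.

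Macrophages that take up more lipid than they can clear store it in droplets and switch on a common set of genes. In this state they sense lipid through the receptor TREM2, take it in through scavenger receptors such as CD36, break it down in lysosomes, coat droplets with perilipin 2 and secrete apolipoprotein E, which carries cholesterol out of the cell. In the lung, alveolar macrophages clear surfactant lipid every day, and cells of the TREM2 type are known from injured and scarred tissue. Several of the 10 genes are not particular to macrophages. Lpl and Cd36 are also used by adipocytes and by heart muscle, and Spp1 and Lgals3 by epithelium and matrix-forming cells.

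Before the group values, the arrays themselves were compared. The share of spots well above background was 72.8% to 89.1%, and no spot was saturated. Type II alveolar markers were well above background on all 9 arrays, for 8 of 8 genes including Sftpc, which encodes surfactant protein C. The list of 8 cardiac muscle genes was 5.97 below the control mean on the log2 scale on irradiated array 1, against −0.46 to 0.40 on the other irradiated arrays. The list of 8 skeletal muscle genes was 3.69 above the control mean on control array 3, against −1.66 to −0.94 on the other control arrays. The labels do not say whether neighboring muscle was dissected with the lung. Counts are therefore also given without irradiated array 1. The images of 4 control and 4 irradiated arrays placed them in 4 pairs, each at one height and one array width apart on the scan, and irradiated array 1 had no partner. That the arrays of a pair were scanned together was inferred from these positions, and no label names a shared slide or scan. Because these pairs hold both groups, differences within them are given beside the group differences.

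The promoters of the members with the largest differences are shown first, with Lgals3 and Plin2, whose irradiated arrays also lay above all control arrays. The sequences were taken by symbol from RefSeq (GRCm38.p6), which held entries for 8 of the 10 members with 12 start sites. They were read 5′ to 3′ on the strand of the gene and end 30 bases into the transcript. Capitals mark matches on either strand to AP-1 (TGANTCA), PU.1 (GAGGAA), the nuclear receptor element AGGTCA or the E-box CACGTG, and none of these motifs overlapped another in the windows shown.
Gpnmb, chr6:49036398-49036547, plus strand: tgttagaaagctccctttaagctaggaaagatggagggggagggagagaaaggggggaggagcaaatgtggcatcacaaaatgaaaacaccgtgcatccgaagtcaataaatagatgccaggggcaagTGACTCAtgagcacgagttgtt
Trem2, chr17:48346281-48346430, plus strand: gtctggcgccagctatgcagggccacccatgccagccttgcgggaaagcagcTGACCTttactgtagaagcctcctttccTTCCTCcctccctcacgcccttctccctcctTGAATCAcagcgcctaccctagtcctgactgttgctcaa
Mmp12, second start, chr9:7347254-7347403, plus strand: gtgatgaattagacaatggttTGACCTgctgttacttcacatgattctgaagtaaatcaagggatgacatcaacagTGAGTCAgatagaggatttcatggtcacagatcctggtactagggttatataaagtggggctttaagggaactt
Mmp12, first start, chr9:7344277-7344426, plus strand: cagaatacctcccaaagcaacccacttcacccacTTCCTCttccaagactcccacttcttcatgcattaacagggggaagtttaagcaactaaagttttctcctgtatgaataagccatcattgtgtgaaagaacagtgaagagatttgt
Spp1, chr5:104434991-104435140, plus strand: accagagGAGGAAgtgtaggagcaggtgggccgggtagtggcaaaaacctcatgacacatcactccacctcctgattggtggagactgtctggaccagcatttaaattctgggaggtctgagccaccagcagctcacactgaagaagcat
Lgals3, chr14:47373740-47373889, plus strand: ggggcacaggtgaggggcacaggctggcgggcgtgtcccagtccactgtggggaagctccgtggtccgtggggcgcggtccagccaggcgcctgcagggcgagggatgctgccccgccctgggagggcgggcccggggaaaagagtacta
Plin2, chr4:86670030-86670179, minus strand: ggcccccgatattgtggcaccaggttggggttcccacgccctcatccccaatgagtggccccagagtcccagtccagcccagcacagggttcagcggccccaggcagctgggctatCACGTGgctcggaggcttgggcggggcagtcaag
AP-1, made of Jun and Fos proteins, is induced when cells are activated, PU.1 is the defining factor of myeloid cells, AGGTCA the core element of receptors such as PPARγ and LXR, and CACGTG a site of the lysosomal factors TFEB and TFE3. The AP-1 letters began at base 9 of the Gpnmb transcript, 9 bases before the Trem2 start and 44 bases before the second Mmp12 start. All motifs were counted in windows of 300 bases, 250 before the start and 50 from it, longer than the sequences shown. The AP-1 letters were found in 3 of 12 member windows, against 7.81% of all 32851 RefSeq windows of the same length. PU.1 letters were in 5 of 12 member windows, among them those of Trem2, the Spp1 start shown and the first Mmp12 start, against 28.3% of all windows. The AGGTCA element was in 4 of 12 windows, against 16.3%, and CACGTG in 1 of 12, that of Plin2, against 7.15%. The AGGTCA match of Plin2 lay upstream of the sequence shown. The Lgals3 window and that of a second Spp1 start, which is not shown, held none of the 4 motifs. A match is a match of letters and was not tested for binding.

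Of the 10 genes, 8 had a higher mean on the irradiated arrays, and Lpl and Cd36 had a lower one. Lgals3 alone passed an adjusted p of 0.05 in limma, where 0.416% of all genes and 0.333% of all probes did in either direction and 0.264% of genes in the higher direction. The mean was at least 2-fold higher for 4 members, Gpnmb, Trem2, Spp1 and Mmp12, and for 1.7% of all genes. At an unadjusted p under 0.05, 6 members were higher and 1, Cd36, was lower, against 7.37% and 4.98% of all genes. For 5 members, Gpnmb, Trem2, Lgals3, Mmp12 and Plin2, every irradiated array lay above every control array, as was the case for 3.4% of all genes. No member lay below all control arrays on every irradiated array, and 1.76% of all genes did. Without irradiated array 1, Trem2 (adjusted p = 0.0266), Lgals3 (0.0249) and Mmp12 (0.0291) passed in limma, and 1.24% of all probes did. In this setting 7 members lay above all control arrays on every irradiated array left and 1, Cd36, lay below, against 5.47% and 3.74% of all genes. None of the members passed when any other array was left out. The inferred scan pairs leave out irradiated array 1 as a fixed block, and 2 members passed (Lgals3 and Apoe, with 2.8% of all probes). On the same 8 arrays with no block, 3 passed (Trem2, Lgals3 and Mmp12, with 1.24%). With the pairs as a random block over 9 arrays, 7 members passed (all but Lpl, Apoe and Fabp5, with 7.38%). With scaling to the 75th percentile, with the authors' normalized values, and without an intensity trend, 0 members passed. The median difference of the 10 members was 0.65 on the log2 scale, and that of all genes tested was 0.0085. Because earlier results were known when the members were chosen, these counts and shares describe them and are not a test.

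**Figure D1:**
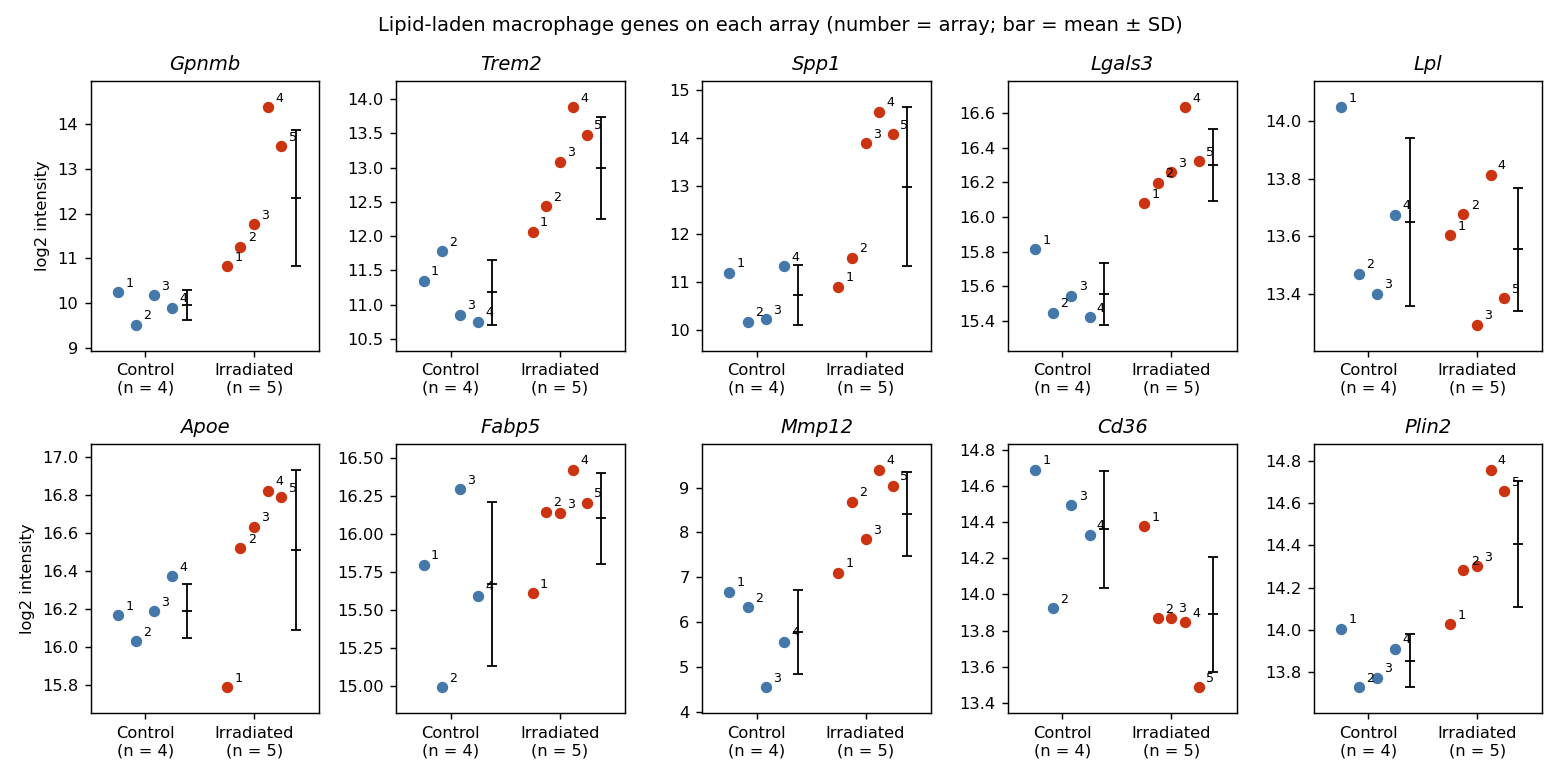
Quantile-normalized log2 intensity of the 10 genes on each of 4 control (blue) and 5 irradiated (red) arrays; numbers name the arrays, black bars give mean ± SD, and each panel has its own axis that does not start at 0. The irradiated arrays lie above all control arrays for Gpnmb, Trem2, Lgals3, Mmp12 and Plin2, and irradiated arrays 4 and 5 carry the highest Gpnmb values, 14.38 and 13.51.

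TREM2 is a surface receptor for lipids and lipoproteins, and GPNMB a transmembrane glycoprotein of lysosomes and the cell surface that is made under lysosomal stress. On the log2 scale, Trem2 was at 11.35, 11.78, 10.85 and 10.75 on control arrays 1 to 4 and at 12.06, 12.43, 13.09, 13.88 and 13.48 on irradiated arrays 1 to 5. The groups did not overlap. The difference was 1.81 (SE 0.37, n = 4 and 5), a 3.50-fold higher mean with a 95% interval of 0.99 to 2.63 on the log2 scale. It did not pass the threshold over all probes in limma (adjusted p = 0.0839), and the exact permutation test gave p = 0.0159, the smallest that 4 against 5 arrays allow when both sides are counted. Within the 4 scan pairs, Trem2 was higher in 4 of 4, by 1.08 to 3.03.

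Gpnmb was at 10.24, 9.51, 10.18 and 9.89 on the control arrays and at 10.82, 11.26, 11.76, 14.38 and 13.51 on the irradiated arrays. All irradiated values lay above all control values, the nearest by 0.58, but the irradiated arrays fell far apart. Arrays 1, 2 and 3 were 1.83-, 2.47- and 3.48-fold above the control mean, and arrays 5 and 4 were 11.7- and 21.5-fold above it. The mean difference of 2.39 (SE 0.66, 5.24-fold) had an adjusted p of 0.209 in limma and an exact permutation p of 0.0159. With the authors' normalized values the difference was 1.74. The SD among the irradiated arrays was 1.53, and 1.26% of all genes had one at least as large. Among the control arrays it was 0.33. Within the scan pairs, Gpnmb was higher by 1.02, 2.24, 4.20 and 3.61.

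Spp1, Mmp12 and Lgals3 encode secreted proteins. Osteopontin, encoded by Spp1, is a matrix protein and cytokine bound by integrins and CD44, MMP12 is the macrophage elastase, and galectin 3, encoded by Lgals3, binds galactose-bearing glycans inside and outside the cell. Spp1 was at 11.19, 10.17, 10.22 and 11.33 on the control arrays and at 10.90, 11.50, 13.89, 14.55 and 14.08 on the irradiated arrays. Irradiated array 1 lay among the control values, array 2 lay 1.71-fold above the control mean, and arrays 3, 5 and 4 lay 8.92-, 10.2- and 14.1-fold above it. The groups therefore overlapped, and the difference of 2.26 (SE 0.74, 4.77-fold) had an adjusted p of 0.298 in limma and an exact permutation p of 0.0635. Its SD of 1.66 among the irradiated arrays was the largest of the 10 members, and 1.00% of all genes had one as large or larger. Within the scan pairs Spp1 was higher in 4 of 4, by 0.31 to 4.33.

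Of the 10 members, Mmp12 had the largest mean difference in the values used here. Its brighter probe was at 6.68, 6.33, 4.55 and 5.57 on the control arrays and at 7.10, 8.69, 7.85, 9.39 and 9.04 on the irradiated arrays, with no overlap. Control array 3 was the lowest. The difference was 2.63 (SE 0.54, 6.20-fold, adjusted p = 0.0861 in limma), and within the scan pairs it was 1.52 to 4.84. With normexp background correction the difference was 1.67, below those of Gpnmb, Spp1 and Trem2, and with the authors' normalized values it was also 1.67, below those of Gpnmb and Spp1, and the groups overlapped. It was also below that of Gpnmb with scaling to the 75th percentile (2.36 for both after rounding), averaged over both probes (2.32 against 2.39), without control array 3 (2.25 against 2.47) and without irradiated array 2 (2.56 against 2.66, with Spp1 at 2.62). The second Mmp12 probe was not well above background on any control array and was on 3 of 5 irradiated arrays. Its irradiated mean was 1.42-fold higher, taking as the control level the lowest signal well above background on each array. That mean includes, as measured, the irradiated arrays not well above background. The adjusted p of 0.187 in limma is for the measured values of both groups, without this control level.

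Lgals3 was bright on every array, at 15.81, 15.45, 15.55 and 15.42 on the control arrays and at 16.08, 16.20, 16.26, 16.63 and 16.32 on the irradiated arrays. Its irradiated arrays were close together and above all control arrays. It rose by 0.74 (SE 0.12), or 1.67-fold, the smallest SE of the 10 members, with an adjusted p of 0.0457 in limma. The call was lost when any array other than irradiated array 1 was left out, with adjusted p-values of up to 0.152, while the difference stayed between 0.66 and 0.82, and it was lost with the authors' normalized values (difference 0.54, adjusted p = 0.105). Within the scan pairs it was higher in 4 of 4, by 0.38 to 1.09.

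**Figure D2:**
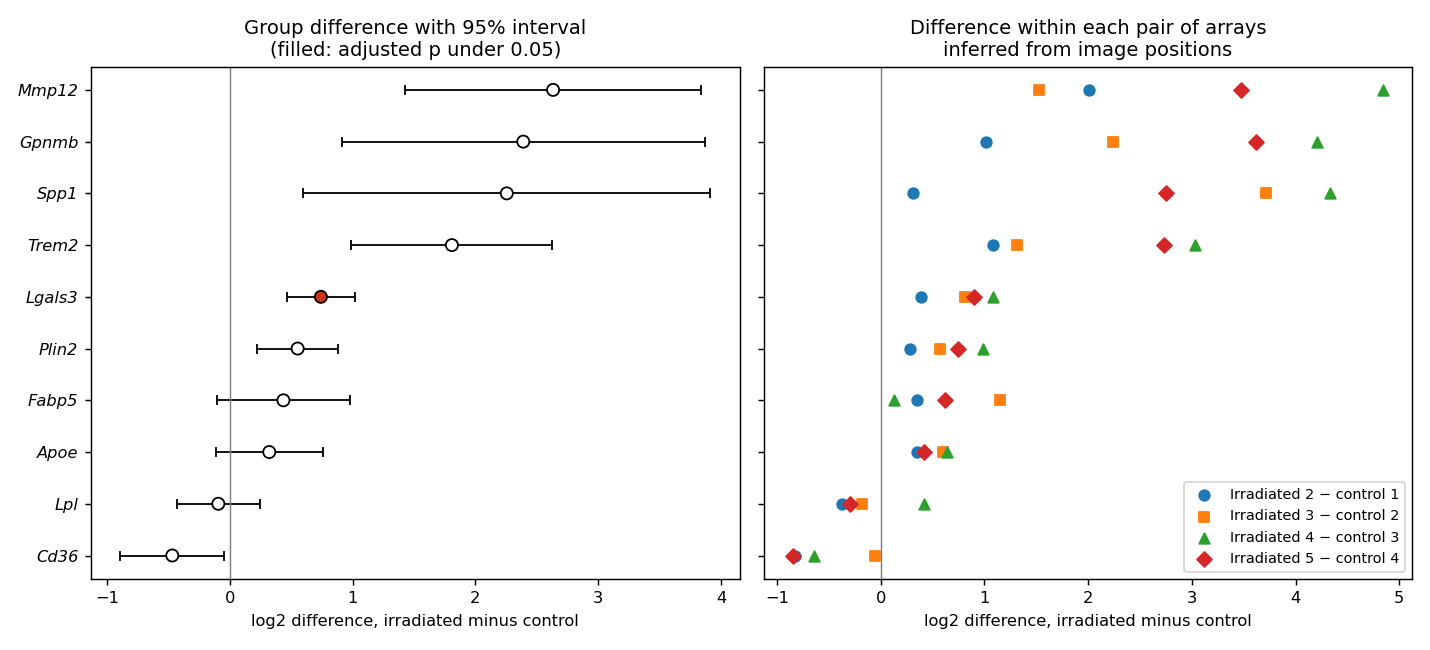
Left, log2 difference of irradiated minus control arrays for each gene with its 95% interval from limma, filled where the adjusted p is under 0.05; right, the same difference within each of 4 pairs of arrays inferred from their positions on the scan images. Only Lgals3 is filled, and all genes but Lpl and Cd36 lie to the right of 0 in every pair.

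The remaining members handle lipid itself. Perilipin 2, encoded by Plin2, coats lipid droplets in most cells. Plin2 was at 14.00, 13.73, 13.77 and 13.91 on the control arrays and at 14.03, 14.28, 14.30, 14.76 and 14.66 on the irradiated arrays. The groups did not overlap, but irradiated array 1 lay only 0.02 above control array 1, and with the authors' normalized values they overlapped. The difference was 0.55 (SE 0.15, 1.47-fold, adjusted p = 0.190 in limma, exact permutation p = 0.0159), and within the scan pairs Plin2 was higher in 4 of 4, by 0.28 to 0.99.

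Apolipoprotein E carries lipid out of cells, and FABP5 carries fatty acids within them. Apoe was at 16.17, 16.03, 16.19 and 16.38 on the control arrays and at 15.79, 16.52, 16.64, 16.82 and 16.79 on the irradiated arrays. Irradiated arrays 2 to 5 lay above all control arrays, and irradiated array 1 lay below all of them. The difference was 0.32 (SE 0.20, 95% interval −0.11 to 0.76, adjusted p = 0.672 in limma), and within the scan pairs, which leave out irradiated array 1, it was 0.35 to 0.64. Over the 8 arrays left without irradiated array 1, the Apoe difference was 0.50 both with and without a term for the pairs. The adjusted p in limma was 0.0400 with the term and 0.0562 without it. Fabp5 ranged from 14.99 to 16.30 on the control arrays and from 15.61 to 16.42 on the irradiated arrays, a difference of 0.44 (95% interval −0.11 to 0.98, adjusted p = 0.626 in limma) that was within the spread of the control arrays. It was 0.21 without control array 2 and 0.64 without control array 3. Within the scan pairs Fabp5 was higher by 0.13 to 1.15.

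Lpl and Cd36 had the lower irradiated means. Lipoprotein lipase, encoded by Lpl, frees fatty acids from lipoproteins, and CD36 takes up fatty acids and oxidized lipoproteins. Cd36 was at 14.69, 13.93, 14.49 and 14.33 on the control arrays and at 14.38, 13.87, 13.87, 13.85 and 13.49 on the irradiated arrays. Irradiated arrays 2 to 5 lay below all control arrays and irradiated array 1 lay among them. The difference was −0.47 (SE 0.19, adjusted p = 0.423 and unadjusted p = 0.0327 in limma), and Cd36 was lower in 4 of 4 scan pairs, by 0.05 to 0.84. Lpl ranged from 13.40 to 14.05 on the control arrays and from 13.29 to 13.81 on the irradiated arrays. Its difference was −0.09 with a 95% interval of −0.43 to 0.25 (adjusted p = 0.919 in limma), which leaves room for a change in either direction. It was higher in 1 of 4 scan pairs, which ran from −0.37 to 0.41, and its second probe gave a difference of −0.07.

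The irradiated arrays stood in nearly the same order for the 8 members with a higher mean. Irradiated array 4 was the highest of the 5 for 9 of the 10 members, and irradiated array 1 was the lowest for 8. Array 5 came next below array 4 for those 8 members. Cd36 had array 1 highest and array 5 lowest, and Lpl had array 4 highest and array 3 lowest. Over all 9 arrays, the Pearson correlation of each member with the mean of the others was 0.99 for Plin2, 0.95 for Gpnmb, 0.94 for Lgals3, 0.92 for Trem2, 0.90 for Spp1 and 0.86 for Mmp12. It was 0.80 for Apoe, 0.63 for Fabp5, −0.01 for Lpl and −0.71 for Cd36. These correlations describe 9 points that share the group difference, and genes that differ between the groups correlate for that reason as well.

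Markers of the cell types were read on the same arrays. Of the general macrophage list, 7 of 8 genes were measured and Cd68 was not found through the gene table. All 7 had a higher irradiated mean, by 0.09 to 0.72, and none passed the threshold over all probes. For 2 of the 7 the irradiated arrays lay above all control arrays, as they did for 3.4% of all genes. These were Adgre1, the usual surface marker of mouse macrophages (difference 0.72, adjusted p = 0.138 in limma), and Mrc1, chosen here after its values were seen (0.60, adjusted p = 0.0652). The mean of the list was −0.15 to 0.21 on the control arrays, 0.10 on irradiated array 1 and 0.48 to 0.55 on irradiated arrays 2 to 5, relative to the control mean on the log2 scale. The log2 of its summed intensity was 16.30 to 17.17 on the control and 16.94 to 17.37 on the irradiated arrays, and no marker of it was at background. The alveolar macrophage list went the other way, with 1 of 8 genes higher, a mean of −0.35 to 0.59 on the control and −0.99 to 0.24 on the irradiated arrays and a summed log2 intensity of 17.38 to 18.63 and 17.91 to 18.59. Siglecf, its defining marker, differed by −0.47 (adjusted p = 0.759 in limma). The list of monocyte and interstitial macrophage genes was −0.31 to 0.29 on the control and −0.40 to 0.91 on the irradiated arrays, with 6 of 7 genes higher. Of the genes of dividing cells 5 of 5 had a higher mean, and their list was −0.29 to 0.20 on the control and 0.20 to 1.11 on the irradiated arrays, with the lowest irradiated array just above the highest control array. The fibroblast and matrix list was −0.24 to 0.26 on the control and −0.22 to 0.48 on the irradiated arrays, with 4 of 6 genes higher. The part of these cells in the members' values was not tested.

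**Figure D3:**
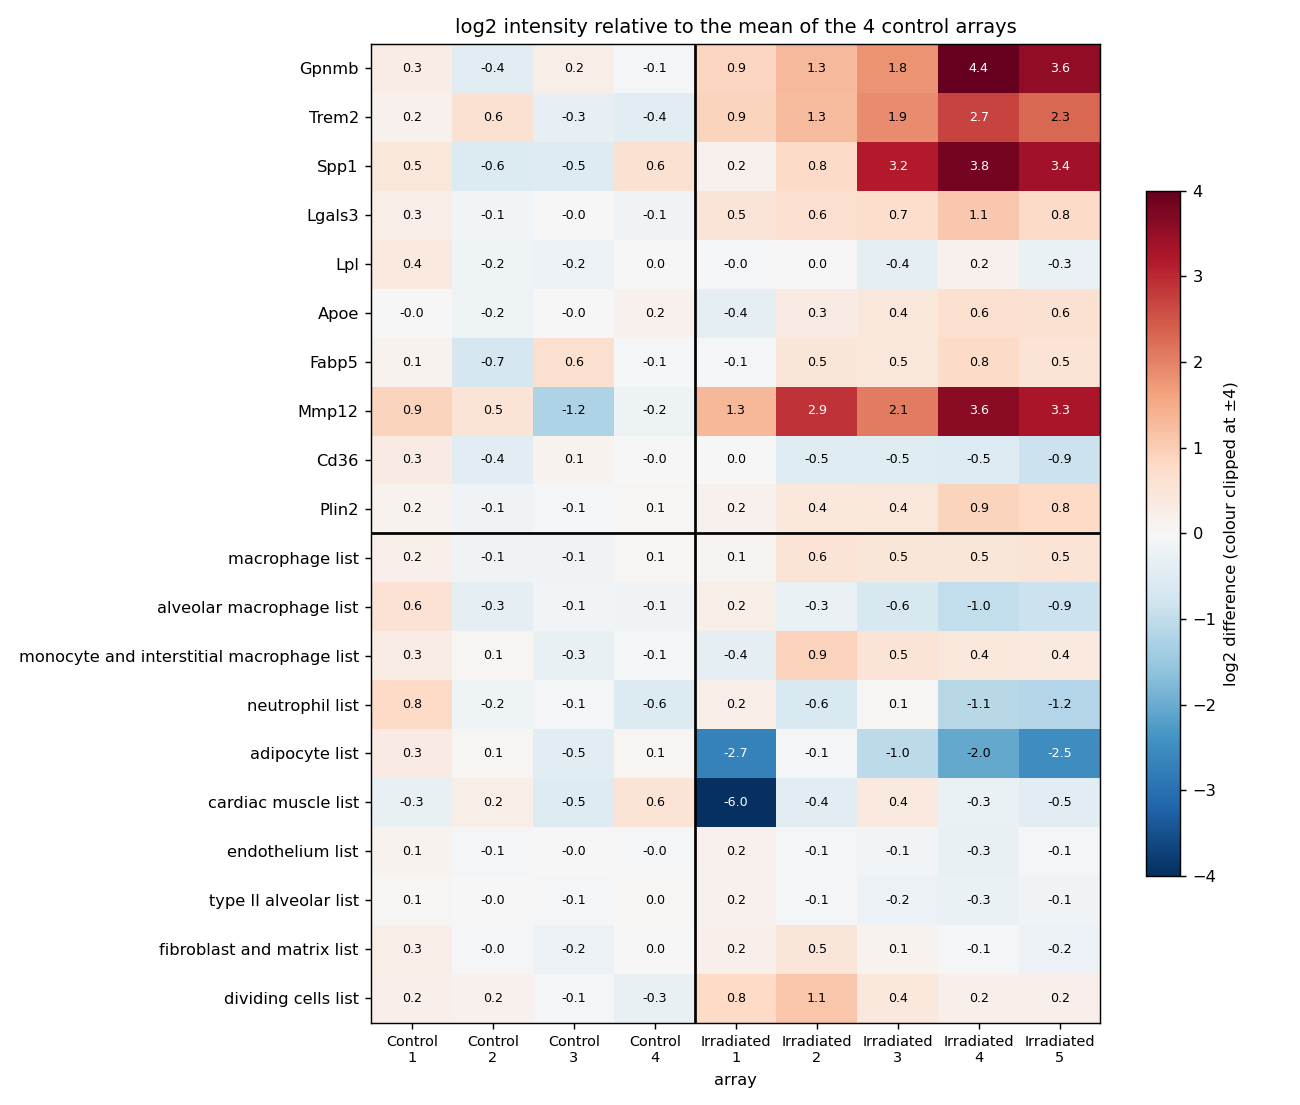
Log2 intensity of the 10 genes (top) and mean log2 intensity of 10 marker lists (bottom) on each array as a difference from the average over the 4 control arrays, with red for higher and blue for lower values. Gpnmb, Spp1, Trem2 and Mmp12 are darkest on irradiated arrays 4 and 5, the macrophage list stays within 0.10 to 0.55 on the irradiated arrays, and the cardiac muscle list is at −5.97 on irradiated array 1.

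The members were also set against the mean of the general macrophage list on the same array, a reference chosen after the data were seen, which lowers every difference by the same amount. The difference between the groups was 2.20 for Mmp12 and 1.95 for Gpnmb, and for these 2 of the 5 members without overlap the irradiated arrays still lay above all control arrays, as they did for 0.386% of all genes on this scale. It was 1.82 for Spp1 and 1.37 for Trem2, where at least 1 irradiated array of each lay within the control range. For Lgals3 it was 0.31 and for Plin2 0.12, with overlap in both. For Fabp5 it was 0.00080, for Apoe −0.11, for Lpl −0.53 and for Cd36 −0.90. Lpl on this scale was lower on every irradiated array than on any control array, as were 9.78% of all genes, and Cd36 overlapped on irradiated array 1 alone.

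Adipocyte markers were lower on the irradiated arrays. Of 9 genes none had a higher irradiated mean and 7 had a lower one at an unadjusted p under 0.05, against 4.98% of all genes, and none passed the threshold over all probes. The mean of the list was −0.46 to 0.31 on the control and −2.69 to −0.07 on the irradiated arrays, and its summed log2 intensity was 15.75 to 17.25 and 13.47 to 16.63. The lowest value was that of irradiated array 1 and the highest that of array 2. Adipoq, which encodes the adipocyte hormone adiponectin, differed by −2.53 (adjusted p = 0.288 in limma). Of the cardiac muscle genes, 0 of 8 had a higher irradiated mean, with a summed log2 intensity of 17.69 to 18.67 on the control and 13.81 to 18.51 on the irradiated arrays. The mean of this list was −5.97 on irradiated array 1. On the other irradiated arrays it was −0.46 to 0.40, within the control range of −0.51 to 0.56. The part of adipocyte and cardiac RNA in the Cd36 and Lpl values was not tested.

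The wider pathway was described with a list of 79 genes of lipid handling and TREM2 signaling, of which 76 were measured. Of these 51 had a higher irradiated mean, as did 10225 of the 19698 genes tested. At an unadjusted p under 0.05, 23 were higher and 8 lower, against 7.37% and 4.98% of all genes. Every irradiated array lay above every control array for 9 of the list and below for 2, against 3.4% and 1.76% of all genes. One, Ch25h, passed the threshold over all probes, and the median difference was 0.12. Without irradiated array 1, 8 genes of the list passed, where 1.24% of all probes did against 0.333% with all arrays, and 0 passed when any other array was left out. With the inferred scan pairs 9 passed as a fixed block, which leaves out irradiated array 1, and 20 as a random block. In these settings 2.8% and 7.38% of all probes passed. Ch25h makes 25-hydroxycholesterol, an oxysterol that restrains cholesterol synthesis. It was at 10.52, 10.67, 9.88 and 9.62 on the control arrays and at 11.32, 11.94, 12.28, 11.98 and 12.04 on the irradiated arrays, with no overlap. Ch25h rose by 1.74 (SE 0.25, 3.34-fold, adjusted p = 0.0313 in limma), and its irradiated arrays 2 to 5 lay between 11.94 and 12.28, closer together than those of Gpnmb and Spp1.

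The single genes of this list named from here on were chosen after their values were seen. In the lysosomal group, 10 of 11 genes had a higher irradiated mean, 9 at an unadjusted p under 0.05, which 7.37% of all genes met in this direction, and none passed the threshold over all probes. The bone and matrix collagenase cathepsin K, Ctsk, differed by 1.70 (3.26-fold, adjusted p = 0.0651 in limma) and the general lysosomal protease cathepsin D, Ctsd, by 0.98 (1.97-fold, adjusted p = 0.0529). The groups did not overlap for either, nor for Lipa, the acid lipase that frees cholesterol from lipoproteins (0.45). Among 9 uptake genes 7 were higher, and the scavenger receptors Msr1 (1.38, adjusted p = 0.0839 in limma) and Olr1 (0.92, adjusted p = 0.148) had no overlap between the groups. Of the 7 genes of the TREM2 signaling group, 4 were higher. Tyrobp, the adaptor through which TREM2 signals, differed by 0.42 (1.33-fold, adjusted p = 0.383 in limma), and the kinase Syk by 0.03. All 4 measured efflux genes had a higher irradiated mean, by 0.18 to 0.39, and none passed the threshold over all probes.

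In the lipid droplet group only 3 of 13 genes had a higher irradiated mean, and 5 were lower at an unadjusted p under 0.05, as were 4.98% of all genes. Plin1, the perilipin of adipocytes, differed by −2.41 (adjusted p = 0.25 in limma), the fat droplet protein gene Cidec by −1.75 (adjusted p = 0.187) and the perilipin gene Plin4 by −1.32 (adjusted p = 0.305). These 3 genes are also on the adipocyte list. Acsl1, which activates long-chain fatty acids, was lower by 0.60 in the mean (adjusted p = 0.106 in limma). Acsl1 and Cidec were lower on every irradiated array than on any control array, as were 1.76% of all genes. Of the 3 other fatty acid binding proteins none was higher, and Fabp4, which adipocytes and endothelium share with macrophages, differed by −1.59 (adjusted p = 0.409). Of 12 nuclear receptors and factors 9 had a higher mean, and the largest difference was 0.78 for Bhlhe40, while Pparg differed by −0.10, Nr1h3 by 0.12 and Tfeb by 0.0034. Among the partners of the members, Timp1, an inhibitor of metalloproteinases, differed by 1.66 (3.17-fold, adjusted p = 0.138 in limma) with no overlap, and Lgals3bp, which encodes a galectin 3 binding protein, by 0.71 (adjusted p = 0.161).

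**Figure D4:**
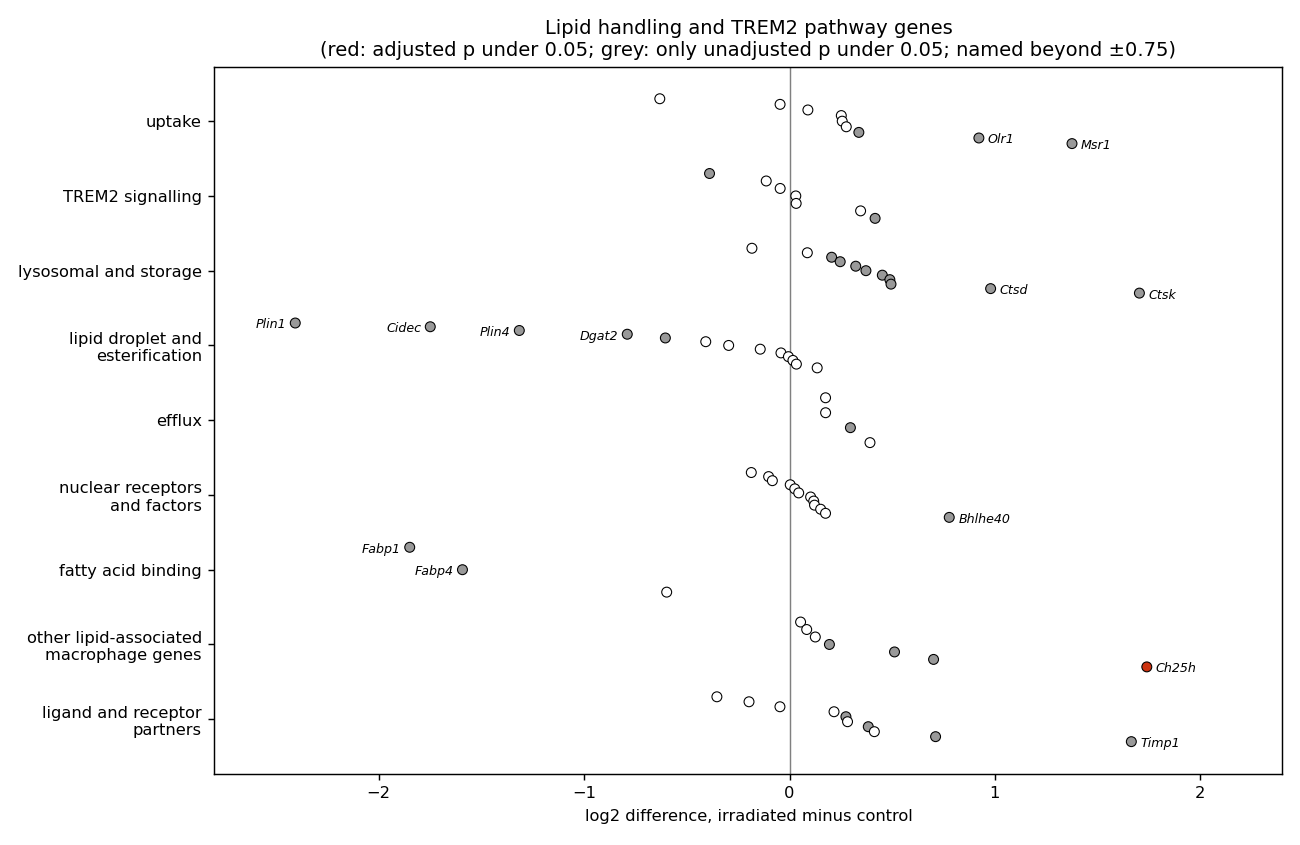
Log2 difference of irradiated minus control arrays for each of 76 genes of lipid handling and TREM2 signaling, one row per group and one point per gene. Ch25h (1.74) is the only gene with an adjusted p under 0.05, lysosomal genes lie mostly to the right of 0, and the largest negative differences are those of Plin1 (−2.41), Fabp1 (−1.85) and Cidec (−1.75).

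The array patterns most like the mean of the members were those of 8 other genes, by Pearson correlation over the 9 arrays among 15225 genes well above background on all arrays. They were Cd84 (r = 0.98), a surface receptor of leukocytes, Slc37a2 (0.98), a sugar phosphate transporter of macrophages, Ctsd (0.96), Ccl3 (0.96), a chemokine, Ecrg4 (0.96), Kng1 (0.96), the gene of kininogen, Fn1 (0.95), which encodes fibronectin, and Chrdl2 (0.95). Kng1 had the largest difference of these 8 genes, 3.63, from 7.11 to 8.15 on the control arrays and from 8.29 to 13.02 on the irradiated arrays (adjusted p = 0.145 in limma). Fn1 was the one that passed the threshold, 0.90 higher (adjusted p = 0.0326 in limma). No r was tested, since the 9 points share the group difference.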

How the data were processed

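The authors deposited the scanner output of each array as intensity values: the processed signal, corrected for background, and the local background, with other columns that mark outlier spots and spots well above background (deposited as flags, 0 or 1). A deposited table of the authors' own normalized intensity values served as an alternative. A genome build is not given in the sources used here. Here, control and outlier spots were left out, log2 values of the processed signal were quantile normalized over the 9 arrays, and the spots of a probe were averaged. A probe was kept if at least 4 arrays showed it at more than 1.4 times its local background, as did 39303 of 39429 gene probes. Accessions gave symbols through a RefSeq table (GRCm38.p6) for 26055 probes and 19751 genes. The brightest probe stood for a gene. Irradiated and control arrays were compared with limma 3.58.1 in R 4.3.3 (intensity trend, no covariate), adjusted by Benjamini-Hochberg over all probes at 0.05. This fit was checked on simulated data with independent noise, which do not carry the correlation within the inferred pairs. Each member was also compared by an exact two-sided permutation test over 126 splits, with the smaller tail doubled. By rule, genes named were the 10 members, the pathway genes past the threshold, defining markers and the 8 genes most like the members. Other pathway genes and Mrc1 were named after their values were seen. The members, lists and tests were chosen with earlier results of these data known. Alternatives were another background correction, scaling, filter, gene summary, threshold and variance model, array weights, the authors' table, blocks, and leaving out each array. The number of arrays limits the precision.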

Additional observations from a re-analysis of the deposited data

Results flagged for a closer look

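An array far from the others was found in 4 of 46 groups of values, 8.7% where chance gives about 5%. Irradiated array 1 was at 0.10 for the macrophage list, against 0.48 to 0.55 on the other irradiated arrays, in log2 relative to the control mean. Irradiated array 1 was at −5.97 for the cardiac muscle list, against −0.46 to 0.40 on the other irradiated arrays. Control array 3 was at 3.69 for the skeletal muscle list, against −1.66 to −0.94 on the other control arrays. For the same skeletal muscle list, irradiated array 1 was at −2.23, against −1.47 to −1.34 on the other irradiated arrays. None of the 10 members had an array as far from its group.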

How the results depend on the processing

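As reported, 1 member, 131 probes and 1 gene of the pathway list passed the threshold, and the groups of 5 members did not overlap, against 5.15% of all genes in either direction. With normexp background correction 2 pathway genes passed. With scaling to the 75th percentile 0 members and 2 pathway genes passed, and Lgals3 had an adjusted p of 0.0659. With the background filter on all 9 arrays 198 probes and 3 pathway genes passed. With the values of the authors' normalized table, 0 members, 44 probes and 2 pathway genes passed, and the groups of 3 members (Gpnmb, Trem2 and Lgals3) did not overlap, against 2.95% of all genes. Without an intensity trend 0 members, 44 probes and 0 pathway genes passed, and at an adjusted p under 0.01 0 members, 5 probes and 0 pathway genes. Arrays with the same number in both groups deviated together with correlations of −0.17 to 0.06, and the numbers mark no shared animal or day in the labels. With a replicate block over 8 arrays, which leaves out irradiated array 5, 0 members, 1 probe and 0 pathway genes passed, and leaving out that array with no block gave 0 members, 37 probes and 0 pathway genes. The pairs inferred from image positions, which no label names, correlated at 0.20 to 0.46. The block of these pairs over 8 arrays leaves out irradiated array 1. With it, 2 members (Lgals3 and Apoe), 1099 probes (2.8%) and 9 pathway genes passed. Leaving out that array with no block gave 3 members, 485 probes and 8 pathway genes. With or without the block, 8 members did not overlap, 7 higher and 1 (Cd36) lower, against 9.21% of all genes. With the pairs as a random block over 9 arrays (estimated correlation 0.60) 7 members, 2899 probes (7.38%) and 20 pathway genes passed, all members but Lpl, Apoe and Fabp5. When each array was left out in turn, 0 to 3 members, 5 to 485 probes and 0 to 8 pathway genes passed, and 5 to 8 members did not overlap, against 6.16% to 9.21% of all genes. The upper value of each range came from leaving out irradiated array 1. Leaving out control array 1 turned the Lpl difference to 0.039, and its range over the arrays left out was −0.18 to 0.039. No other member changed direction under any alternative run. Array weights, no background filter and averaging over the probes of each gene kept these counts within 1.5 times. The cause of these changes was not tested. The 9 arrays limit every call, and the second Mmp12 probe has only a bound on the control arrays.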
